A study of Drosophila melanogaster with 4 samples.

Results

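Complex I of the respiratory chain, NADH:ubiquinone oxidoreductase, is read here through its nuclear genes in testes of *Drosophila melanogaster* that lack *nsr* (*CG3875*), a young duplicate gene of the *kep1* family of RNA-binding proteins. The members are the genes whose annotated symbol starts with ND- and that a probe set reports alone. Where several probe sets reported a gene, the brightest by its mean over the arrays was taken. The gene table of *D. melanogaster* holds 40 such genes, and 32 of them could be read in this way, out of 11982 genes so represented on the array. Of these 32 genes, 27 encode subunits and 5 are duplicates of a subunit gene, written with an L after the name of their parent. Testes of *nsr* mutant flies, a strain with a null allele made by ends-in gene targeting that removes most of the transcribed region, were compared with testes of WT flies. Both were males aged 0 to 2 days, with seminal vesicles dissected away, and there were 2 arrays for each genotype, named *nsr* mutant 1 and 2 and WT 1 and 2. The WT strain is a recombinant from the same targeting that carries an intact *nsr*, and was used so that both strains share their background. Each array had its own RNA extraction and hybridisation, but whether the extractions came from separate groups of flies is not given, so that p-values measure the spread between these arrays only, which may be technical. The values are linear intensities of GeneChip *Drosophila* Genome 2.0 arrays, where each probe set is a group of short probes against a transcript.

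Complex I takes electrons from NADH in the mitochondrial matrix, passes them through a flavin and a chain of iron-sulfur clusters to ubiquinone, and couples this to the pumping of protons across the inner membrane. It is L-shaped. The tip of its matrix arm oxidises NADH, the base of that arm reduces quinone, and the membrane arm pumps. A few core subunits do this work and are conserved from bacteria, and the others are accessory subunits that surround and stabilise them. The core of the membrane arm is encoded by the mitochondrial genome, and those genes were not analysed here. In the fly testis, the mitochondria of each early spermatid fuse into a large body, the nebenkern, whose derivatives then elongate along the growing axoneme. Several nuclear genes of the respiratory chain have duplicates in *Drosophila* that are transcribed mainly in testes. The bulk samples hold all cells of the testis, and fewer cells of a type cannot be told apart from less RNA per cell. Roles below are known mostly from the human or bovine complex, and the human ortholog of a fly gene is named in brackets or beside it.

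The test of genotype was made by limma over the whole array, on a scale of log2(intensity + 16), and p-values were adjusted over all 18769 probe sets other than controls (Benjamini-Hochberg). The deleted gene checks the labels: *nsr* had intensities of 23.2 and 27.6 in the mutant, against WT intensities of 549 and 554. The log2 fold change of -3.78 (standard error 0.10) had an adjusted p of 0.00837 from limma, and no other probe set passed. Above background here means brighter than the highest of 61 negative control probe sets on the array in question, which lay between 5.70 and 8.57 on the 4 arrays. Of 10 markers of the testis germline, 9 were above background on all 4 arrays and *vas* on none, and their summed intensity was 17392 and 18688 in the mutant against 18279 and 19890 in WT. Of the 8 listed muscle genes 6 could be read alone, all 6 above background on all 4 arrays. They summed to 310 and 417 in the mutant against 285 and 310 in WT, and 2 of them had an unadjusted p under 0.05 from limma. Of 7 accessory gland genes 2 were above background on all 4 arrays and *Acp26Aa* on none, with sums of 94.6 and 144 in the mutant against 92.8 and 111 in WT, and 1 of them had such a p. The median log2 fold change was 0.23 over the muscle genes and 0.22 over the accessory gland genes, beside -0.04 over all probe sets. An unadjusted p under 0.05 from limma was found in 7.13% of all probe sets and 9.42% of those above background on all arrays. Of 5 fat body genes 2 were above background on all 4 arrays and *Yp1* and *Yp2* on none. They summed to 84.2 and 83.5 in the mutant against 56.0 and 97.6 in WT. Muscle is rich in complex I, and the part of these other tissues in the values below was not tested.

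All 32 members were above background on all 4 arrays, and none was called different between the genotypes. Their mean intensities ran from 82.4 for *ND-B12* to 3033 for *ND-13A*, with a median of 671, against a median of 98.9 for the 8323 genes above background on all 4 arrays, where intensity describes the probe set and does not rank genes by transcript number. No member passed an adjusted p of 0.05 in limma, in a comparison that called 0.00533% of all probe sets, and the lowest adjusted p was 0.750. Nor did any member have an unadjusted p under 0.05, which 7.13% of all probe sets and 9.42% of those above background on all arrays did. In group means 27 of the 32 members lay within 10% of each other between the genotypes, and the ratio of mutant to WT ran over the members from 0.793, in *ND-B12*, to 1.13. A p that misses the threshold does not show that the genotypes are alike, and the intervals give the bounds. The 95% interval of the log2 fold change from limma held 0 for all 32 members, lay within a 2-fold change for all 32 and within a 1.5-fold change for 31. The exception was again *ND-B12*, with an interval of -0.67 to 0.10. These bounds are those of the brightest probe set of each gene. The dimmest probe set of *ND-ACP* had an interval of -0.12 to 0.59, which also passes a 1.5-fold change. The plot of intensities by array shows how close the 4 values of each gene lay.

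**Figure D1:**
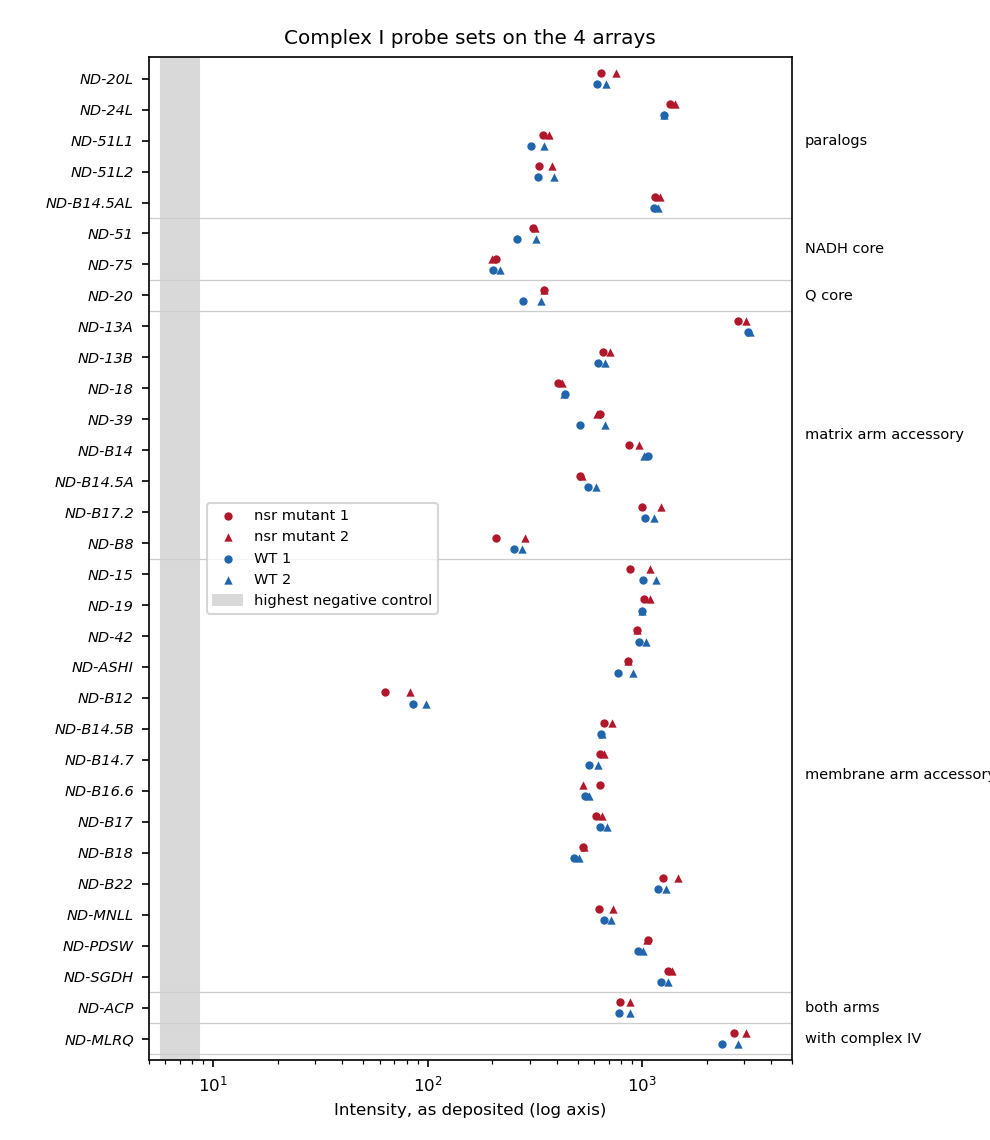
Intensity of the 32 complex I genes on the 4 arrays, on a log axis, by role in the complex. Red points are *nsr* mutant arrays and blue points WT arrays, circles replicate 1 and triangles replicate 2, and the grey band is the range of the highest negative control over the arrays (5.70 to 8.57). All points lie to the right of the band, and *ND-B12*, at 63.2 to 98.3, is the dimmest.

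The core subunits at the tip of the matrix arm accept the electrons of NADH. *ND-51*, the ortholog of human NDUFV1, which binds NADH and the flavin, had intensities of 310 and 317 in the mutant against 260 and 322 in WT (log2 fold change 0.11, standard error 0.13). *ND-75*, the ortholog of NDUFS1, the largest core subunit and a carrier of iron-sulfur clusters, had 209 and 199 in the mutant against 202 and 218 in WT (log2 fold change -0.04, standard error 0.10). In both genes the arrays of the 2 genotypes overlapped. At the base of the arm, *ND-20* encodes the counterpart of NDUFS7, which carries the last iron-sulfur cluster before quinone. It had 347.6 and 348.1 in the mutant against 279 and 337 in WT, a log2 fold change of 0.17 (standard error 0.12, adjusted p = 0.811 from limma), the highest of the 32 with all arrays. It was 0.05 without WT 1 and 0.30 without WT 2. Both mutant arrays lay above both WT arrays, and the WT arrays differed from each other by more than the mutant arrays differed from WT 2. The other nuclear core genes *ND-24*, *ND-49*, *ND-30* and *ND-23* were not analysed here.

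Of the 8 accessory subunits of the matrix arm, 3 had a log2 fold change above 0 and 5 below, and none was called. Above 0 stood 37.4% of all probe sets and 32.2% of those above background on all arrays. The median was -0.09, beside -0.08 for genes above background on all arrays. It depended on the scale of the arrays, at -0.02 with array medians centred, 0.00 with quantile normalization and -0.00 with cyclic loess. Without *nsr* mutant 1 it was 0.02. *ND-B14*, the ortholog of NDUFA6, a small protein of the LYR family that holds an acyl carrier protein on the complex, had 867 and 966 in the mutant against 1063 and 1020 in WT (log2 fold change -0.18, standard error 0.10, adjusted p = 0.768 from limma). *ND-B14.5A*, the ortholog of NDUFA7, had 514 and 526 in the mutant against 559 and 613 in WT (log2 fold change -0.16, standard error 0.10). *ND-13A*, the ortholog of the zinc-binding NDUFS6 and the brightest member, had 2793 and 3042 in the mutant against 3127 and 3172 in WT (log2 fold change -0.11). In these 3 genes, and in *ND-18* (NDUFS4, needed in mammals for a stable NADH-oxidising tip), each mutant array was dimmer than each WT array. Thus 4 of the 8 were so separated, where 24.9% of all probe sets and 27.6% of those above background on all arrays were. *ND-B8*, the ortholog of NDUFA2, had 208 and 284 in the mutant against 253 and 275 in WT, so that its log2 fold change of -0.11 lay inside the spread of the mutant arrays. The other 3, *ND-13B*, *ND-39* and *ND-B17.2*, had log2 fold changes of 0.08, 0.09 and 0.03, with overlapping arrays. *ND-39* is the ortholog of NDUFA9, which binds a nucleotide near the quinone site.

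The accessory subunits of the membrane arm had log2 fold changes of both signs. Of 14 members, 9 had a log2 fold change above 0 and 5 below, with a median of 0.07 and a range of -0.29 to 0.13. Of all probe sets 37.4% were above 0, and of those above background on all arrays 32.2%. The lowest was *ND-B12*, the ortholog of NDUFB3, with 63.2 and 82.5 in the mutant against 85.4 and 98.3 in WT (log2 fold change -0.29, standard error 0.15, adjusted p = 0.750 from limma). Its genotypes did not overlap, but the mutant arrays lay further from each other than mutant 2 lay from WT 1. Its log2 fold change was -0.13 without *nsr* mutant 1 and -0.44 without *nsr* mutant 2. *ND-42*, the ortholog of NDUFA10, a relative of nucleoside kinases, was the other member of the arm in which each mutant array was dimmer than each WT array, at 946.5 and 946.6 in the mutant against 971 and 1038 in WT. In *ND-42*, as in *ND-18* above, the log2 fold change turned above 0 with quantile and cyclic loess normalization. Both mutant arrays lay above both WT arrays in 5 of the 14 members and below them in 2. Of probe sets above background on all arrays, 7.9% lay so above and 27.6% so below. The 5 members above were *ND-19* (NDUFA8), *ND-PDSW* (NDUFB10), *ND-B18* (NDUFB7), *ND-B14.5B* (NDUFC2) and *ND-B14.7* (NDUFA11). Their log2 fold changes were between 0.08 and 0.13. *ND-PDSW*, for example, had 1064 and 1055 in the mutant against 954 and 1007 in WT. The remaining 7 overlapped between the genotypes: *ND-15* (log2 fold change -0.14), *ND-B17* (-0.07), *ND-MNLL* (-0.02), *ND-ASHI* (0.03), *ND-B16.6* (0.06), *ND-SGDH* (0.08) and *ND-B22* (0.13). *ND-B16.6* is the counterpart of NDUFA13, also known as GRIM-19.

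Outside the arms, *ND-ACP* encodes the mitochondrial acyl carrier protein, which sits on both arms of the complex and also serves fatty acid synthesis. Its 3 probe sets did not give the same difference. The brightest had 792 and 880 in the mutant against 777 and 878 in WT (log2 fold change 0.02), and the other 2 had log2 fold changes of 0.15 and 0.24, with adjusted p = 0.872 and 0.776 from limma. Only in the dimmest of the 3, at 476 and 387 in the mutant against 343 and 382 in WT, did both mutant arrays lie above both WT arrays. The 2 probe sets of *ND-B17* both had a log2 fold change of -0.07. *ND-MLRQ*, the ortholog of NDUFA4, now placed with complex IV in mammals, had 2686 and 3048 in the mutant against 2362 and 2786 in WT, a log2 fold change of 0.16 within overlapping arrays. A further subunit falls outside the ND- names: *NP15.6*, the ortholog of NDUFB11, had 1158 and 1139 in the mutant against 1076 and 1094 in WT. With a log2 fold change of 0.08 (adjusted p = 0.898 from limma), its genotypes did not overlap.

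**Figure D2:**
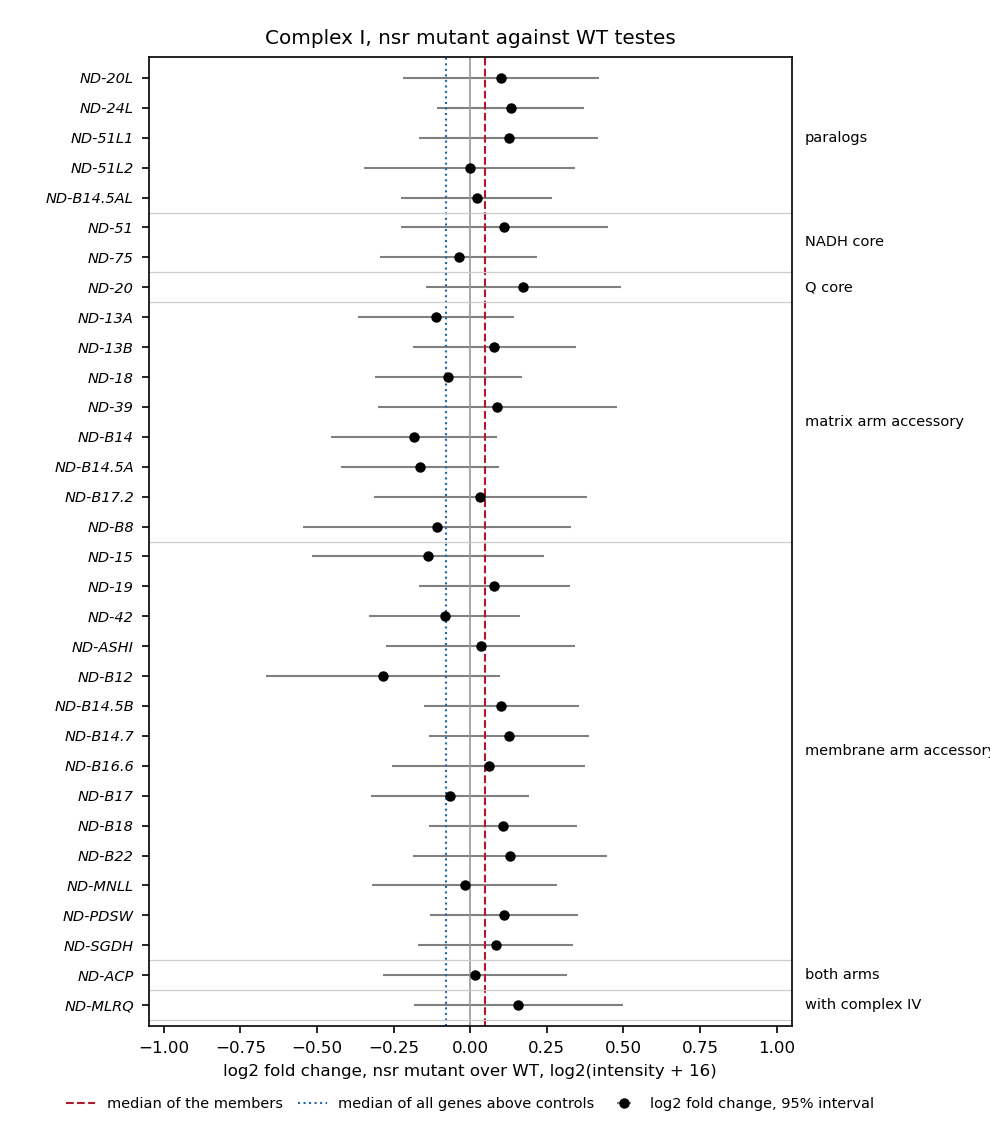
Log2 fold change of the 32 complex I genes, *nsr* mutant over WT, on the log2(intensity + 16) scale, by role in the complex. Bars are 95% intervals from limma with 2 arrays per genotype. The dashed red line is the median of the members (0.05) and the dotted blue line the median of all genes above background on all arrays (-0.08). Every bar crosses 0, and none reaches 1 or -1.

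The duplicated genes differ from their parents in place. *ND-20L*, *ND-24L* and *ND-B14.5AL* lie on chromosome arms 3R, 3L and 3L in release 6 of the genome, while their parents *ND-20*, *ND-24* and *ND-B14.5A* lie on the X chromosome. *ND-51L1* and *ND-51L2* lie on 2R and their parent *ND-51* on 2L, so that in none of the 5 does the copy share an arm with its parent. Of the 32 members 8 are X-linked, all of them subunits and none a duplicate, beside 1297 of the 8323 genes above background on all arrays. The X-linked members had a median log2 fold change of 0.01 and the autosomal ones of 0.08, a difference that was not tested and whose order turned without *nsr* mutant 2 (0.01 and 0.00), while both were below 0 without WT 1 (-0.07 and -0.02). Of the duplicates and their measured parents, *ND-51L1* overlaps *Smurf* in its span, *ND-51L2* overlaps *Trpm*, *ND-51* overlaps *CG34180*, *ND-B14.5AL* overlaps *CG14459* and *ND-B14.5A* overlaps *Cyp4d14*. Whether their probes also read those transcripts was not tested.

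All 5 duplicates were above background on all 4 arrays, and none passed the test. *ND-24L*, a copy of the NDUFV2 ortholog of the NADH-oxidising tip, had 1350 and 1423 in the mutant against 1259 and 1269 in WT, which is a log2 fold change of 0.13 (standard error 0.09, adjusted p = 0.812 from limma). Both its mutant arrays lay above both WT arrays, as in 10.2% of all probe sets and 7.9% of those above background on all arrays. In the other duplicates the genotypes overlapped. *ND-20L* had 640 and 753 in the mutant against 619 and 676 in WT (log2 fold change 0.10, standard error 0.12). *ND-51L1* had 343 and 370 in the mutant against 304 and 348 in WT, a log2 fold change of 0.13. *ND-51L2* had 331 and 379 in the mutant against 326 and 387 in WT, and its log2 fold change was -0.00. The array of replicate 2 was the brighter one in both genotypes in each of the 5 copies. *ND-B14.5AL* had 1153 and 1210 in the mutant against 1138 and 1191 in WT, a log2 fold change of 0.02 (standard error 0.09). Thus 4 of the 5 had a log2 fold change above 0, with a median of 0.10 (-0.01, with 2 of the 5 above 0, without *nsr* mutant 2), beside 16 of the 27 subunit genes with a median of 0.03. With a log2 fold change above 0 stood 37.4% of all probe sets and 32.2% of those above background on all arrays.

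Each duplicate with a measured parent was set against it within the same array, which takes out any difference of scale between arrays. Probe sets differ in how brightly they report a transcript, so that such a ratio is no ratio of transcript numbers and only its difference between the genotypes is read. The log2 ratio of *ND-B14.5AL* to *ND-B14.5A* was 1.14 and 1.18 in the mutant against 1.01 and 0.94 in WT, a difference of 0.19, with both mutant arrays above both WT arrays. That of *ND-51L2* to *ND-51* was 0.09 and 0.25 in the mutant against 0.31 and 0.25 in WT, a difference of -0.11, with each mutant array below each WT array by a narrow margin. Without *nsr* mutant 1 that difference was -0.03, and without *nsr* mutant 2 it was -0.19. The ratios were compared by a two-sided exact permutation test alone, which with 2 arrays against 2 cannot go below p = 0.333, and both pairs had p = 0.333, or 0.666 adjusted over the 4 pairs. The ratios of *ND-20L* to *ND-20* and of *ND-51L1* to *ND-51* overlapped between the genotypes, with differences of -0.07 and 0.02 (p = 0.667 and 1.0, exact permutation test). The probe set of *ND-20* is of a type whose probes can match more than 1 transcript, as are those of *ND-15*, *ND-19*, *ND-B14.7*, *ND-MNLL* and *ND-PDSW*, so that a share of its signal from *ND-20L* cannot be told apart.

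**Figure D3:**
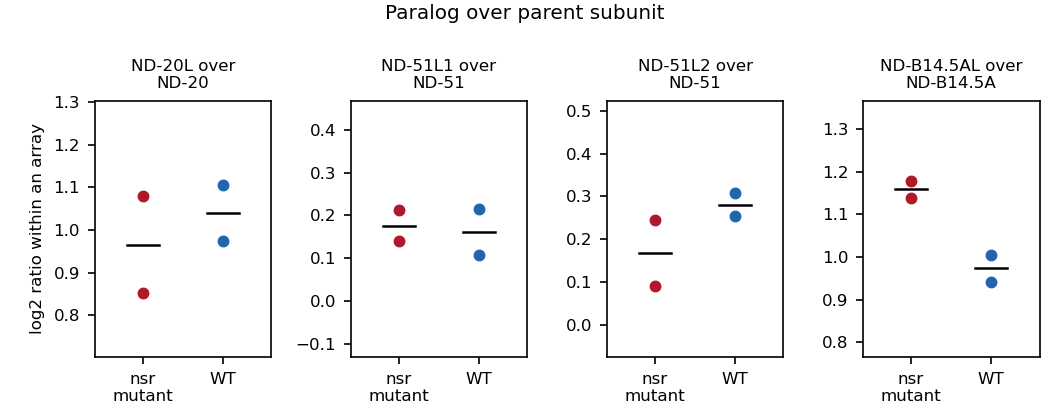
Log2 ratio of a duplicate to its parent subunit gene within each array, on the log2(intensity + 16) scale, for 4 pairs, with *nsr* mutant arrays in red at the left and WT arrays in blue at the right of each panel. Points are arrays and lines are means of 2 arrays, and all panels span the same height. The genotypes are apart for *ND-B14.5AL* over *ND-B14.5A*, by 0.19, and narrowly for *ND-51L2* over *ND-51*.

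As a group the members stood slightly above the run of genes in the mutant. The median log2 fold change over the 32 was 0.05, beside -0.04 over all probe sets and -0.08 for genes above background on all arrays, and 20 of them were above 0. Both mutant arrays lay above both WT arrays in 7 members and below them in 6, where 10.2% and 24.9% of all probe sets and 7.90% and 27.6% of those above background on all arrays did so. The members differed between arrays of a genotype by more than their own median of 0.05. The members' median log2 difference between the mutant arrays, 2 minus 1, was 0.09, and that between the WT arrays was 0.11, so that each was larger than the median difference between the genotypes. Over all genes above background on all arrays the same differences were 0.15 and 0.18. In 27 of the 32 members the genotype difference was smaller than the larger of the 2 differences between arrays of a genotype. Measured from its own mean over the 4 arrays, the median member stood at -0.02 and 0.08 on the mutant arrays and at -0.08 and 0.04 on the WT arrays. The median of all genes above background stood at -0.11 and 0.03 on the mutant arrays and at -0.04 and 0.13 on the WT arrays. By these medians the members stood above other genes on both mutant arrays and below them on both WT arrays, most so on *nsr* mutant 1 and WT 2.

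**Figure D4:**
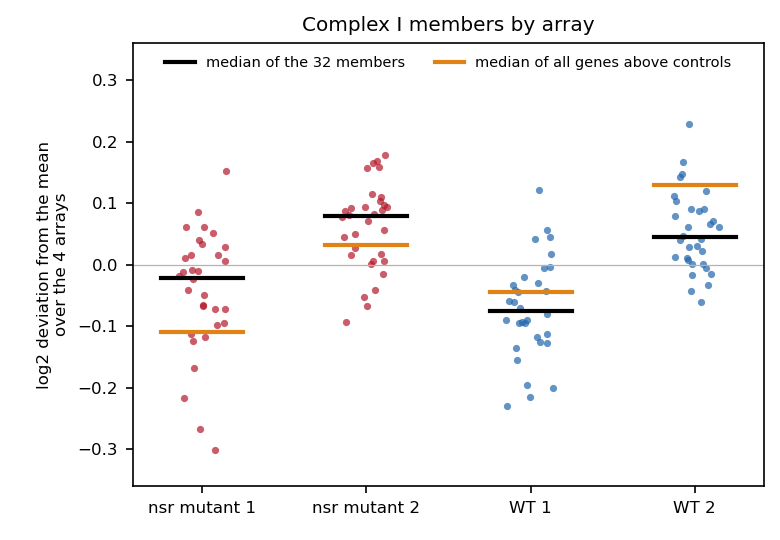
Deviation of each of the 32 complex I genes on each array from its own mean over the 4 arrays, on the log2(intensity + 16) scale. Red points are *nsr* mutant arrays and blue points WT arrays, black lines are the medians of the members and orange lines the medians of all genes above background on all arrays. The black line lies above the orange one on both mutant arrays and below it on both WT arrays.

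The members also differ from other genes in length and brightness, and both are given beside the shift. Their median gene span was 1100.5 bases, against 2256.5 bases for genes above background on all arrays, and 27 of them spanned at most 2000 bases. Over the 3702 genes above background of at most 2000 bases the median log2 fold change was -0.03, and over the 4588 longer ones it was -0.12. For 521 such short genes whose mean intensity also lay between the quartiles of the members, 491 and 1030, the median was -0.02, with 45.9% above 0, 10.9% with both mutant arrays above both WT arrays and 18.4% with both below. The 27 short members, not chosen by brightness, had a median of 0.03. Cyclic loess normalization takes out a difference between arrays that depends on brightness. After it the median was 0.13 for all 32 members, 0.12 for the 27 short ones and 0.07 for the 521 short genes of like brightness. The members' own median depended on the scale of the arrays, and so did that of other genes. For genes above background on all arrays the median was -0.08 as reported and 0.004 after cyclic loess. With array medians centred, quantile normalization and cyclic loess the members' median was 0.12, 0.15 and 0.13, with 24, 26 and 26 of the 32 above 0, where 48.4%, 52.3% and 51.0% of probe sets above background were. In those 3 settings both mutant arrays lay above both WT arrays in 17, 19 and 19 members, where 21.2%, 25.1% and 23.9% of probe sets above background did so, and below in 3, 1 and 1, where 23.4%, 22.7% and 23.6% did. Members with an unadjusted p under 0.05 from limma numbered 0, 4 and 4, where 9.97%, 10.8% and 10.7% of all probe sets had one. The members' median was -0.03 without WT 1, when 14 of the 32 were above 0 and the median of all probe sets was -0.09. The difference between the members and other genes was not tested.

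The other complexes of the chain had no call either. Of 48 genes of complexes II to V, chosen by symbol and with the assembly factor gene *Sdhaf3* among them, none was called in limma, and 1, *COX6AL2*, had an unadjusted p under 0.05. *COX6AL2*, a duplicate of a complex IV subunit gene, had 287 and 390.1 in the mutant against 482 and 538 in WT, with a log2 fold change of -0.58 and an adjusted p of 0.690 from limma. The 48 had a median log2 fold change of 0.03, with 30 above 0, and the mutant arrays were the brighter ones without overlap in 8 and the dimmer ones in 6. Of probe sets above background on all arrays, 32.2% were above 0. Both mutant arrays lay above both WT arrays in 7.9% of these and below them in 27.6%. Differences of the 48 from the complex I members or from other genes were not tested. Of 8 assembly factors of complex I, whose products build the complex without remaining in it, all were above background on all arrays and none passed the test or had an unadjusted p under 0.05. Their median log2 fold change was -0.03, beside -0.08 for all genes above background on all arrays. Of the 8, 2 were above 0 and 6 below, where 32.2% of probe sets above background on all arrays were above 0. *l(2)37Bb*, the ortholog of human FOXRED1, had 152 and 159 in the mutant against 165 and 198 in WT, a log2 fold change of -0.20 with an adjusted p of 0.778 from limma. *140up*, the ortholog of TIMMDC1, had 104 and 100.5 in the mutant against 98.6 and 84.3 in WT (log2 fold change 0.14). *CIA30*, the ortholog of NDUFAF1, and *sicily*, that of NDUFAF6, had -0.06 and -0.01, and *Nubpl*, which delivers iron-sulfur clusters to the complex, had -0.01.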

How the data were processed

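Testes of *nsr* mutant and WT flies were measured on 4 Affymetrix arrays, 2 per genotype, grouped by the sample labels. The authors extracted, amplified and labelled total RNA and deposited a linear intensity per probe set in each array. How probes were summarised, background was corrected and arrays were scaled is, in the sources used here, not given, and intensities were analysed as deposited, with medians of 12.1 to 15.7. Gene names came from the platform's annotation and were brought up to date by gene ID with a RefSeq gene table of release 6 (13544 of 13647 single-gene probe sets). Of 40 ND- genes, *ND-AGGG* shares its probe set with another gene, and *ND-23*, *ND-24*, *ND-30*, *ND-49*, *ND-49L*, *ND-B15* and *ND-MWFE* were not analysed here.

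The genotype test used log2(intensity + 16) in limma 3.58.1 (R 4.3.3), two-sided, with no covariates. The pseudocount of 16 understates changes of dim genes. The methods name SAM, whose software was not used here. Tables were made with Python 3.11.15. Simulated arrays were used to test limma, and the permutation test was checked on a constructed example with a known difference. The number of arrays limits the precision.

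The members and lists were chosen with earlier results of these data known. Named genes were the duplicates and their parents, the core subunits, any member at an unadjusted p under 0.05, the 4 with the largest change, and the 3 brightest and 3 dimmest; the others named complete the account of the members, and *COX6AL2* and the assembly factors were named after their values were seen. Alternatives were pseudocounts of 1 and 64, array medians centred, quantile and cyclic loess normalization, filters on dim probe sets, an intensity trend, a replicate block, omission of each array in turn, and averaging all probe sets of a gene. The comparison with genes of like span and brightness was added after seeing the data. Gene spans come from the gene table, whose release the array files do not name.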

Additional observations from a re-analysis of the deposited data

Results flagged for a closer look

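A probe set outside the members carried a signal above the negative controls on all 4 arrays. It is annotated to *ND-AGGG*, the ortholog of NDUFB2, and to *CG40472*, which the gene table also lists as *ND-AGGGL*, so that neither gene is read from it. Its mean intensity was 476, with 406 and 531 in the mutant against 406 and 563 in WT, a log2 fold change of -0.04 with an adjusted p of 0.996 from limma.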

How the results depend on the processing

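No complex I member and none of the genes of complexes II to V was called in limma under any alternative run, and the lowest adjusted p of a member was 0.363, with the replicate block. Calls over all probe sets numbered 1 as reported, 111 with array medians centred, 136 and 122 after the filters at the 25th percentile and at the negative controls, 3 with quantile normalization, 2 with cyclic loess, 2 with the block, and 0 with a pseudocount of 1 or without any 1 array. Members at an unadjusted p under 0.05 numbered 0 as reported, 1 with a pseudocount of 64, 4 with quantile normalization, 4 with cyclic loess and 1 with the replicate block, and from 0 to 1 when an array was left out (1 without *nsr* mutant 2). The same numbers over all probe sets were 1338 as reported and 1262, 2033, 2010 and 2379 in those 4 settings. The median log2 fold change of the members was 0.12 with array medians centred, 0.15 with quantile normalization and 0.13 with cyclic loess, and from -0.0327 (without WT 1) to 0.106 (without WT 2) when an array was left out. Members with both mutant arrays below both WT arrays numbered 3, 1 and 1 in those 3 scalings, where 23.4%, 22.7% and 23.6% of probe sets above background did so, and 6 to 13 without an array (11 without *nsr* mutant 2, 13 without WT 1). Those above numbered 17, 19 and 19, where 21.2%, 25.1% and 23.9% did, and 7 to 19 without an array (18 without *nsr* mutant 1, 19 without WT 2). With 1 array in a genotype such a count has fewer values to separate, so that it cannot be set beside a count from all 4 arrays. The share over all probe sets without an array is not given here. Whether a replicate number marks shared flies or a shared day is not given in the labels, and replicate 2 was the brighter array in 28 members in the mutant and 30 in WT. Deviations of arrays with the same number correlated at 0.117 over 9933 probe sets, and at 0.01 over the members.

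Of the 32 members, 4 turned direction with medians centred and 6 each with quantile normalization and loess. These were *ND-51L2*, *ND-75*, *ND-MNLL* and *ND-B17* and, in the last 2 settings, *ND-18* and *ND-42*. Values were, for *ND-51L2*, 0.0699 with medians centred, 0.0899 with quantile normalization and 0.0810 with loess, and for *ND-75* 0.0334, 0.0449 and 0.0391. With an array left out 13 turned at least once, among them *ND-51L2* (-0.121 to 0.117), *ND-75* (-0.0908 to 0.0142), *ND-20L* (-0.0154 to 0.214), *ND-51* (-0.0345 to 0.256), *ND-B14.5AL* (-0.0139 to 0.0547) and *ND-B8* (-0.321 to 0.104). The others were *ND-15*, *ND-39*, *ND-ACP*, *ND-ASHI*, *ND-B16.6*, *ND-B17.2* and *ND-MNLL*. The ratio of *ND-20L* to its parent then ran between -0.188 and 0.0397 and that of *ND-51L1* between -0.0382 and 0.0687. The call of *nsr* ended with a pseudocount of 1 (log2 fold change -4.39, adjusted p = 0.346 from limma) and without any 1 array, with values from -3.85 to -3.70. The cause was not tested. Filters, the trend and the block leave log2 fold changes, overlaps and ratios as they are.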
